A study of Mus musculus with 2 samples.

Results

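The genes described here are 53 chromatin regulators that have been linked to endotoxin tolerance, chosen by symbol from a fixed list of names and measured in 2 libraries. All 53 were found among 55536 annotated genes, of which 22015 are protein-coding genes encoded in the nucleus. The sequenced RNA, cleared of ribosomal RNA, came from macrophages grown from the bone marrow of C57BL/6J mice. Both libraries had the same treatment: 100 ng/ml Lipid A for 12 h, 12 h without it, and 100 ng/ml again for the last 60 min. Lipid A is the part of bacterial endotoxin that the receptor TLR4 recognises. One label field calls the RNA nuclear and another calls it nucleoplasmic. Replicate 1 started from 1 µg of RNA and replicate 2 from 500 ng, both carry the same donor identifier, and sex and age were not collected. Nothing in the labels says that the replicates came from separate animals or cultures, so the spread between them may be technical. The series has 1 group, with no cells that were untreated or treated a single time, so the levels below are not responses to Lipid A and do not measure tolerance.

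Chromatin regulators add, remove or read chemical marks on histones and DNA, or move nucleosomes, and so set how readily a gene is transcribed. Macrophages that have met endotoxin before respond less to another dose at many inflammatory genes while other genes still respond, and this tolerance has been linked to marks that differ between those gene classes. The list holds enzymes that add or remove acetyl groups, enzymes that add or remove methyl groups on histones, enzymes of DNA methylation, proteins that bind the marks, and subunits of remodelling complexes.

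The libraries held 23630328 and 15687634 expected counts on annotated genes, of which the 53 regulators took 128700 (0.545%) and 81050 (0.517%). Levels are given in TPM, an abundance per transcript that corrects for length and is scaled to the same total in each library, with replicate 1 before replicate 2. The median nuclear protein-coding gene of 1 TPM or more was 0.47 lower on the log2 scale in replicate 2. Ratios between the libraries are therefore given relative to that gene. By another deposited quantifier, used on the reads directly, its shift (replicate 2 over replicate 1) was 0.38. The shift was 0.11 when only nuclear protein-coding genes made up the total, and -0.03 by counts after TMM normalisation. Its direction thus changed with the quantifier and the scale. A lower TPM in replicate 2 therefore does not by itself show less RNA of a gene. The regulators held 0.410% and 0.462% of the TPM of nuclear protein-coding genes. All 12 macrophage markers reached 10 TPM in both libraries, with summed levels of 7239 and 4026 TPM. No marker of neutrophils (10 genes), of T, B and NK cells (9), of dendritic cells (6) or of stromal and endothelial cells (7) reached 1 TPM in both libraries. The summed levels of those lists were 2.37 and 0.80, 0.15 and 0.11, 1.68 and 1.00, and 2.23 and 1.12 TPM. Of 7 erythroid and megakaryocyte markers 1 did, the platelet factor gene Pf4 at 23.3 and 17.5 TPM. The macrophage markers stood 0.38 lower in replicate 2 on the relative log2 scale (median of 12), and whether this bears on the ratios of the regulators was not tested.

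Nearly the whole list was detected in this nuclear RNA. The list was chosen with earlier results of these data known, so its lead over other genes may partly reflect that choice. A level of 1 TPM or more in both libraries was reached by 52 of the 53 regulators, and by 39.9% of nuclear protein-coding genes. A level of 10 TPM or more was reached by 28 regulators and by 14.8% of those genes. The 52 had a median of 13.8 TPM in replicate 1 against 11.7 TPM in replicate 2, beside 9.18 and 6.55 TPM for nuclear protein-coding genes above the same floor. The middle of the list, between its quartiles, ran from 7.79 to 28.5 TPM in replicate 1 and from 5.69 to 19.1 TPM in replicate 2. By mean level the regulators ranked from 314 (Brd2) to 8818 (Kdm5b) among nuclear protein-coding genes. The 6 highest, at a mean of 40 TPM or more, were Brd2, Tet2, Ncor1, Chd4, Dnmt3a and Kdm6b, and they fall in 5 of the 13 roles described below.

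**Figure D1:**
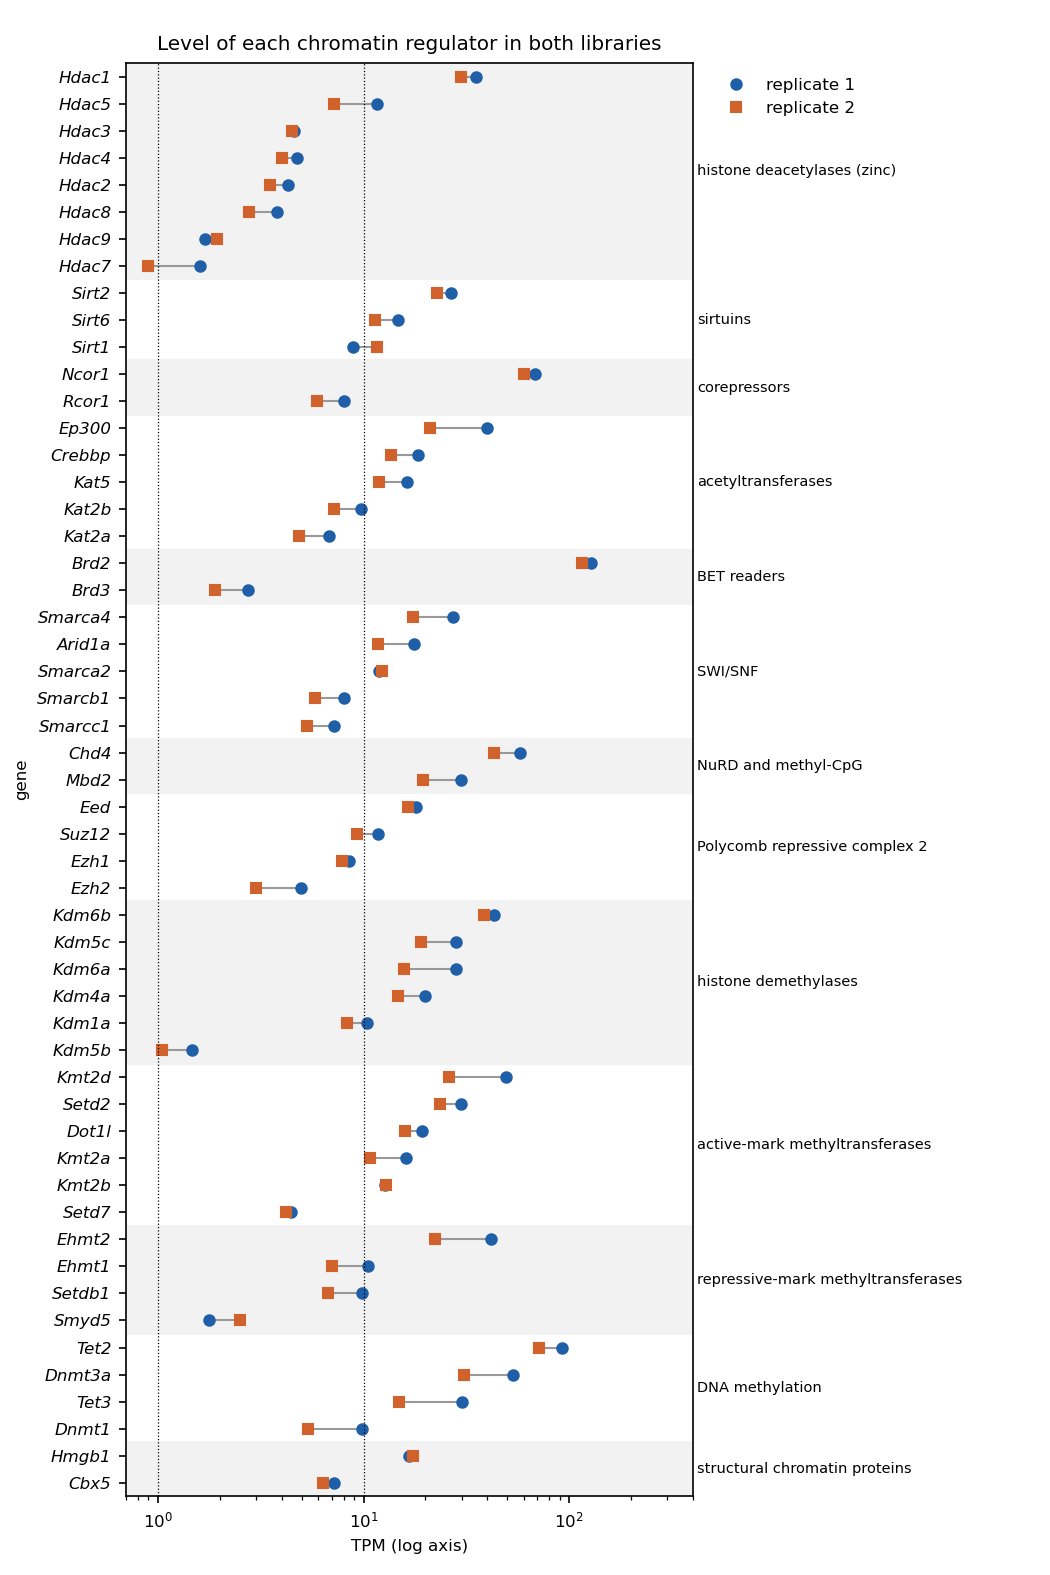
TPM (log axis) of each of the 53 regulators, grouped by role. Circles are replicate 1, squares replicate 2, a grey line joins them, and dotted lines mark 1 and 10 TPM. Brd2 lies above 100 TPM in both libraries, and Hdac7 is the gene that falls below 1 TPM, in replicate 2.

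Gene totals in TPM hid a large share that the annotation does not count as coding. The annotation gives each transcript a class: protein coding, retained intron (a transcript that keeps an intron and has no reading frame assigned), nonsense-mediated decay (a frame that ends early, which marks an RNA for destruction in the cytoplasm), or processed transcript. Retained-intron transcripts held 24.7% and 26.8% of the summed TPM of the regulators, beside 17.0% and 20.4% for nuclear protein-coding genes of 1 TPM or more. The median regulator had a retained-intron share of 16.1% and 16.8% of its TPM, beside 7.99% and 8.56%. By counts, which are not divided by length, the medians were 5.45% and 4.14%, beside 2.68% and 2.99%. The regulators also have more annotated transcripts (median 7.5 against 6), and 80.8% of the 52 have an annotated retained-intron transcript against 64.3%, so the classes were not open to all genes alike. A share of 25% or more in both libraries was found for 13 regulators of 1 TPM or more, and 23% of the nuclear protein-coding genes did the same. Coding transcripts held over 50% of the TPM in both libraries in 39 regulators and under 50% in both in 11. These counts were not made over other genes, so they have no background. The median coding share of the regulators was 76.2% and 73.7% of TPM, beside 81.0% and 78.8% for the nuclear protein-coding genes.

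**Figure D2:**
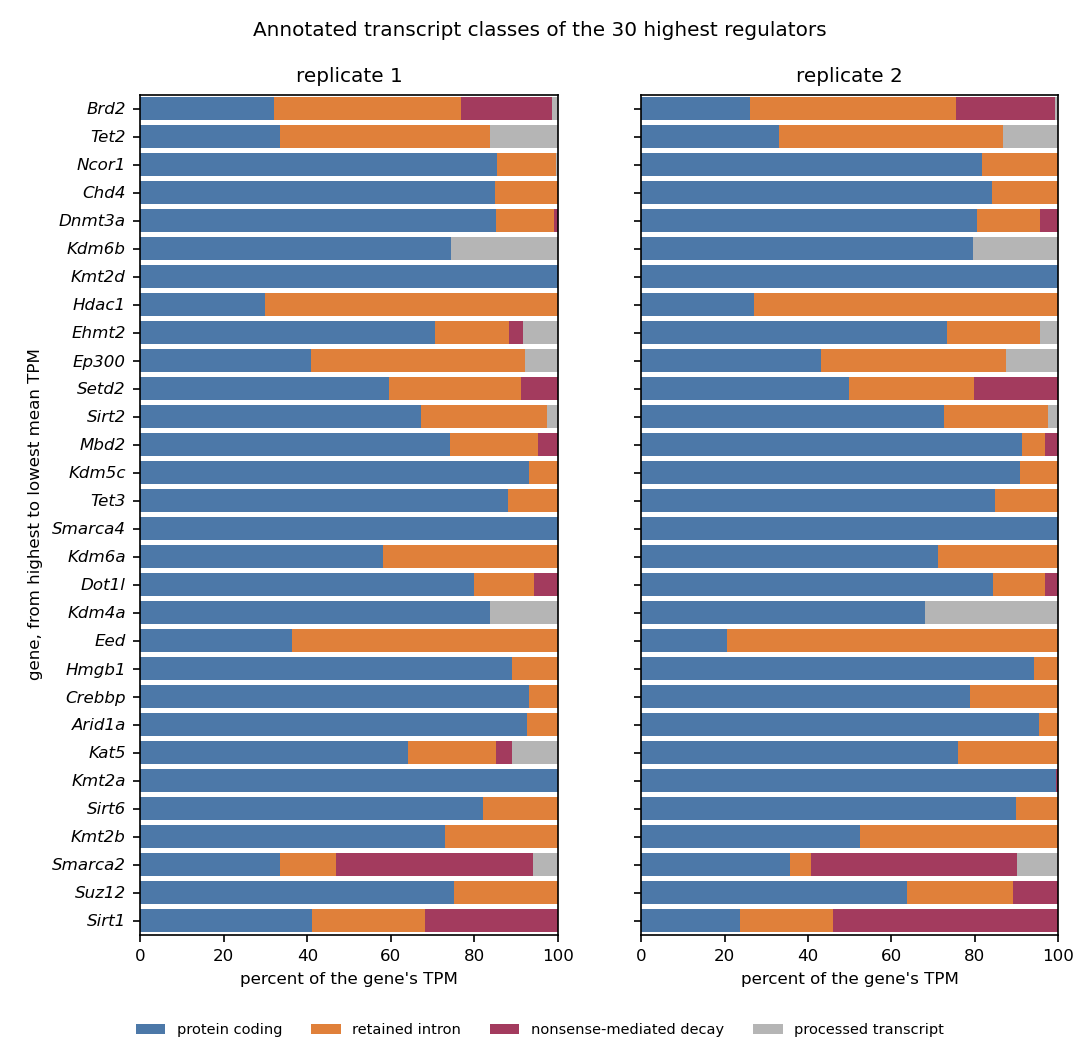
Share of each gene's TPM (percent) held by 4 annotated transcript classes, in replicate 1 (left) and replicate 2 (right), for the 30 regulators with the highest mean TPM. Retained-intron transcripts fill over 60% of the bar of Hdac1 and Eed in both libraries, decay transcripts over 30% of Sirt1 and Smarca2, and Kmt2d and Smarca4 are coding only.

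Brd2, a reader of acetylated histones of the BET family, was the highest of the 53. It stood at 128 TPM in replicate 1 and 115 TPM in replicate 2 (mean 121.5 ± 8.92, SD, n = 2), from 7860 and 5233 counts. Its paralog Brd3, with the same kind of paired bromodomains, stood at 2.73 and 1.89 TPM from 278 and 179 counts. The libraries did not overlap between these genes, and the difference was 5.68 ± 0.25 on the log2(TPM + 0.1) scale (SD, n = 2). The Brd2 gene (chr17:34112023-34122634, mm10, minus strand) shares exon sequence with H2-DMa on the opposite strand, which was at 24.2 and 10.6 TPM. Whether counting used strand is not given in the sources used here, so reads in that overlap cannot be told apart. Of the 53 regulators 19 share exon sequence with a gene on the opposite strand, and not all of these are named below.

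Only 32.0% and 26.2% of the Brd2 TPM lay in coding transcripts. Retained-intron transcripts held 44.8% and 49.2%, the highest of them Brd2-215 with 17.97% and 15.1%. A further 18.99% and 21.2% lay in Brd2-207, a decay transcript that held 35.1% and 47.5% of the gene's counts and had the highest TPM of the gene's transcripts in replicate 1. The quantifier used on the reads directly gave Brd2-207 less, 16.4% and 12.1% of TPM. Brd2-207 includes an extra exon of 92 bases (chr17:34116598-34116689, mm10, minus strand), a length that is not a multiple of 3. It is shown because the reading frame of this decay transcript runs through it. The line begins with 24 coding bases of the exon before, the capitals mark the extra exon, and the last 3 letters are the stop codon taa, which begins 17 bases after the exon ends.
Brd2-207 extra exon: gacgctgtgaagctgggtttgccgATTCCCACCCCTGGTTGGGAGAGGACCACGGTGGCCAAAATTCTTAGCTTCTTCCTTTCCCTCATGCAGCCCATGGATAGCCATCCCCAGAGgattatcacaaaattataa
The assignment among coding transcripts moved between libraries: Brd2-203 held 12.1% of TPM in replicate 1 and was listed at 0 in replicate 2, while Brd2-202 went from 8.7% to 22.1%. The classes moved with the quantifier. By the one used on the reads directly, retained-intron transcripts held 57.6% and 72.1% and coding transcripts 22.9% and 13.4%. It gave the retained-intron Brd2-217 15.9% and 35.0%, against 0 and 6.87% in the main tables.

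The enzymes of DNA methylation spanned a wide range. Tet2, which oxidises methylated cytosine and starts its removal, stood at 92.1 and 71.4 TPM (mean 81.8 ± 14.6, SD, n = 2). Tet3, of the same family, stood at 30.1 and 14.9 TPM. Tet2 was above Tet3 in both libraries, by 1.94 ± 0.46 on the log2(TPM + 0.1) scale. When only coding transcripts were summed the difference was 0.22 and 0.91, since Tet3 kept 88.1% and 84.7% of its TPM in coding transcripts and Tet2 33.5% and 33.1%. The third family member Tet1 is not on the list of 53 and was at 0.04 and 0.03 TPM.

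The highest Tet2 transcript was the coding Tet2-201, with 32.2% and 31.1% of TPM and 66.6% and 60.3% of counts. The retained-intron transcripts Tet2-208 (22.1% and 26.9%) and Tet2-210 (14.7% and 13.1%) and the short processed transcript Tet2-202 (16.1% and 13.4%) held most of the rest. The second quantifier put Tet2-210 at 14.5% and 16.0%. Tet2-210 keeps an intron of 767 bases that lies between coding exons (chr3:133479366-133480132, mm10, minus strand). Its ends are shown because they carry the splice sites that this transcript leaves unused. The first line runs from the upstream exon into the intron and the other from the intron into the downstream exon, with intron bases in capitals.
Tet2-210 intron start: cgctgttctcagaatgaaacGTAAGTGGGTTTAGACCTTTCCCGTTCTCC
Tet2-210 intron end: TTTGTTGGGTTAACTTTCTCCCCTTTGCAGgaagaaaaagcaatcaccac
The kept intron begins with GT and ends with AG, the usual splice-site letters.

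Dnmt3a, which adds methyl groups to unmethylated DNA, stood at 53.4 and 30.9 TPM (mean 42.1 ± 15.9, SD, n = 2). Dnmt1, which copies methylation after replication, stood at 9.88 and 5.39 TPM. Every Dnmt3a value was above every Dnmt1 value, with Dnmt1 minus Dnmt3a at -2.46 ± 0.05 on the log2(TPM + 0.1) scale. Dnmt3a was mostly coding, at 85.1% and 80.4% of TPM, divided mainly among Dnmt3a-205 (24.4% and 27.9%), Dnmt3a-218 (23.97% and 26.8%) and Dnmt3a-201 (19.7% and 17.8%). For Dnmt1 the quantifiers differed: retained-intron transcripts held 4.4% and 1.7% in the main tables and 49.9% and 55.4% by the second quantifier.

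Among the 8 zinc-dependent histone deacetylases, which remove acetyl groups, only Hdac1 reached 10 TPM in both libraries. Hdac1 stood at 35.3 and 29.8 TPM. Its near paralog Hdac2, which shares complexes with it, stood at 4.31 and 3.52 TPM. Hdac3, the deacetylase of the NCoR and SMRT corepressor complexes, stood at 4.58 and 4.51 TPM. Hdac1 was above both in each library, by 3.03 ± 0.03 over Hdac2 and by 2.81 ± 0.16 over Hdac3 on the log2(TPM + 0.1) scale.

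The lead was smaller when only coding transcripts were summed. Retained-intron transcripts held 70.1% and 72.9% of Hdac1 TPM, and by coding transcripts alone the lead over Hdac2 was 1.42 and 1.39 and the lead over Hdac3 was 1.64 and 1.98. A single transcript, Hdac1-206, held 54.8% and 62.6% of the gene's TPM, 35.5% and 41.6% of its counts, and 50.1% and 49.5% of TPM by the second quantifier. It was the transcript with the highest TPM in both libraries, ahead of the coding Hdac1-201 at 29.9% and 27.1%. Hdac1-206 keeps an intron of 263 bases between coding exons (chr4:129516637-129516899, mm10, minus strand), and it is shown whole because the transcript that keeps it held over 50% of the gene's TPM in both libraries. Capitals mark the intron, and 15 bases of exon stand on each side.
Hdac1-206 kept intron: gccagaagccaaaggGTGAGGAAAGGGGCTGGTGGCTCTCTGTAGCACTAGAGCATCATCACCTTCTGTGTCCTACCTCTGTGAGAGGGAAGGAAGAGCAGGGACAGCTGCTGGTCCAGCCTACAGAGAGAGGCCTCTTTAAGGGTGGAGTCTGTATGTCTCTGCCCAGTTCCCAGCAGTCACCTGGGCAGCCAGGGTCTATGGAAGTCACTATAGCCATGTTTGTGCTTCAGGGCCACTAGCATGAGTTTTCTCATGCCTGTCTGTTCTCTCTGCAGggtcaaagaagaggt
The intron is 54.4% G and C, begins with GT and ends with AG, and its length is not a multiple of 3.

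The class IIa deacetylases, which shuttle between nucleus and cytoplasm and have weak activity of their own, were low. Hdac5 stood at 11.6 and 7.19 TPM, and Hdac4 at 4.74 and 4.03 TPM. Hdac4 was below Hdac5 in both libraries (-1.05 ± 0.32 on the log2(TPM + 0.1) scale). Hdac9 stood at 1.69 and 1.93 TPM from 160 and 163 counts. Hdac7 stood at 1.61 and 0.90 TPM from 116 and 42 counts, the only member under 1 TPM in a library, and 57.4% and 36.7% of that lay in retained-intron transcripts. Hdac7 and Hdac9 did not differ beyond the spread between libraries (-0.54 ± 0.68). The class I enzyme Hdac8 stood at 3.78 and 2.77 TPM. Hdac3 had retained-intron shares of 25.1% and 56.1%, on 223 and 164 counts for the whole gene. Hdac7 shares exon sequence with Slc48a1 on the opposite strand, at 16.8 and 12.3 TPM, which is above Hdac7 itself.

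The 3 sirtuins on the list, of a family of deacetylases and related enzymes that consume NAD, all reached 10 TPM in at least 1 library. Off the list, Sirt7 was higher than these 3 in both libraries, at 36.6 and 25.3 TPM. The other off-list sirtuins measured were low: Sirt4 at 2.69 and 1.25, Sirt3 at 1.09 and 1.12, and Sirt5 at 0.59 and 0.44 TPM. Sirt2 stood at 26.5 and 22.8 TPM, Sirt6 at 14.8 and 11.4 TPM and Sirt1 at 8.93 and 11.6 TPM. Sirt1 was below Sirt6 in replicate 1 and level with it in replicate 2, and the difference of -0.35 ± 0.52 on the log2(TPM + 0.1) scale was within the spread. By the second quantifier it was -0.01 in replicate 1 and 0.56 in replicate 2. Sirt2 shares exon sequence with Nfkbib, an inhibitor of NF-kB, on the opposite strand, which was at 36.5 and 32.99 TPM.

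Sirt1 was 1 of 3 regulators with 10% or more of TPM in decay transcripts in both libraries, beside Brd2 and Smarca2. The share among nuclear protein-coding genes of 1 TPM or more was 7.51%, and 3 of 52 regulators is near it. An annotated decay transcript exists for 40.4% of the 52 and for 31.6% of those genes. The decay transcript Sirt1-205 held 31.8% and 54.1% of Sirt1 TPM and 38.5% and 65.0% of its counts. By the second quantifier it held 14.3% and 24.1%, and the higher share was in replicate 2 by each measure. By coding transcripts alone Sirt1 was below Sirt6 in both libraries, at a difference of -1.70 and -1.86. Sirt1-205 includes an extra exon of 125 bases (chr10:63326660-63326784, mm10, minus strand). Its reading frame is shown from 24 coding bases before the exon to the stop codon TGA, which starts at base 13 of the exon. Capitals mark the exon bases up to that stop.
Sirt1-205 extra exon to stop: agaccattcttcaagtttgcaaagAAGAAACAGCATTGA
The frame thus ends within the first bases of the added exon, while in Brd2-207 it runs through the exon and ends in the next.

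Ncor1, the scaffold that carries Hdac3 to repressed genes, was the third highest member at 68.0 and 60.0 TPM (mean 64.0 ± 5.65, SD, n = 2). Its TPM was 85.6% and 81.8% coding and spread over many of 25 annotated transcripts, the highest being Ncor1-204 (15.7% of TPM) in replicate 1 and Ncor1-222 (12.2%) in replicate 2. Rcor1, the corepressor that holds the demethylase Kdm1a and Hdac1 or Hdac2 together, stood at 8.01 and 5.94 TPM and was coding only.

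The acetyltransferases, which add the marks that deacetylases remove, stood at moderate levels. Ep300 (p300) stood at 39.7 and 20.97 TPM and its paralog Crebbp (CBP) at 18.3 and 13.6 TPM. Crebbp was below Ep300 in both libraries, at a difference of -0.86 ± 0.35 on the log2(TPM + 0.1) scale. That order turned with the transcripts counted: by coding transcripts alone, a comparison chosen after the data were seen, Crebbp minus Ep300 was 0.08 and 0.24. Retained-intron transcripts held 51.3% and 44.3% of Ep300 TPM but 9.9% and 8.7% of its counts, and in Crebbp 6.9% and 21.1% of TPM. The transcript behind this changed between libraries: Ep300-207, of 697 bases, held 34.3% and 9.9%, and Ep300-208, of 850 bases, held 10.1% and 25.9%.

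Kat5, the catalytic subunit of the TIP60 complex, stood at 16.4 and 12.0 TPM. Kat2b (PCAF) stood at 9.73 and 7.21 TPM and Kat2a (GCN5), the paralog found in SAGA, at 6.81 and 4.84 TPM. Kat2a was below Kat2b in both libraries, at a difference of -0.54 ± 0.04. By coding transcripts alone the difference was -1.40 and -1.64, and Kat2a had 48.6% and 28.9% of its TPM in coding transcripts.

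The SWI/SNF complex, which slides and ejects nucleosomes with ATP, has either Smarca4 (BRG1) or Smarca2 (BRM) as its motor. Smarca4 stood at 27.1 and 17.4 TPM, with all of it in coding transcripts. Smarca2 stood at 11.9 and 12.3 TPM, below the authors' deposited interval in each library, whose level is not stated and whose lower bounds were 13.6 and 13.8 TPM. Smarca4 in replicate 1 lay above its own interval, whose upper bound was 26.8 TPM. The gene totals put Smarca4 higher by 0.84 ± 0.49 on the log2(TPM + 0.1) scale. By the deposited posterior mean of TPM it was higher by 0.42. By the second quantifier the difference was 0.35 in replicate 1 and -0.50 in replicate 2, so the order of the 2 motors by gene total was not stable. By coding transcripts alone Smarca4 was higher by 2.74 and 1.96. Decay transcripts held 47.1% and 49.4% of Smarca2 TPM, most of it in Smarca2-215 (37.2% and 40.02%, and 19.6% and 20.4% by the second quantifier), among 46 annotated transcripts.

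The other SWI/SNF subunits were in a similar range. Arid1a, the subunit with a DNA-binding ARID domain, stood at 17.7 and 11.7 TPM. The core subunits Smarcb1 and Smarcc1 stood at 8.0 and 5.79 TPM and at 7.15 and 5.32 TPM. Smarcc1 shares exon sequence with Dhx30 on the opposite strand, at 16.0 and 17.8 TPM, which is above Smarcc1 itself. Smarcb1 had a higher retained-intron share by counts (51.8% and 58.8%) than by TPM (19.4% and 26.0%). Its transcript Smarcb1-205 keeps 2 long introns of 1455 and 3407 bases and held 43.9% and 45.6% of counts. Both introns are longer than the kept introns of Hdac1, Tet2 and Ehmt2 described here.

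Chd4, the motor of the NuRD complex, which joins remodelling to Hdac1 and Hdac2, stood at 57.8 and 43.1 TPM (mean 50.5 ± 10.4, SD, n = 2). It was 85.0% and 84.1% coding, led by Chd4-202 with 46.4% and 50.5% of TPM. Mbd2, which brings NuRD to methylated DNA, stood at 29.7 and 19.4 TPM. Chd4 was above every zinc-dependent deacetylase of the list in both libraries, and Mbd2 was above all of them except Hdac1.

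Polycomb repressive complex 2 methylates lysine on histone H3 to silence genes. Eed, which reads the mark, stood at 18.1 and 16.4 TPM. Suz12, which holds the complex together, stood at 11.7 and 9.25 TPM. The enzyme Ezh2 stood at 4.97 and 3.01 TPM from 148 and 75 counts. Ezh1, the alternative enzyme of non-dividing cells, stood at 8.48 and 7.89 TPM. Ezh2 was below Ezh1 in both libraries, at a difference of -1.06 ± 0.43 on the log2(TPM + 0.1) scale, and of -1.93 and -3.00 when only coding transcripts were summed.

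Eed had the highest retained-intron share of the list in replicate 2, at 79.5%, after 63.7% in replicate 1. By counts the shares were 29.1% and 48.1%, and by the second quantifier 72.1% and 80.5%. This share was divided among short transcripts, led by Eed-206 (15.7% and 22.7%), Eed-203 (14.1% and 17.4%) and Eed-207 (13.3% and 14.4%). The coding Eed-201 held 33.1% and 16.4%. Ezh2 had retained-intron shares of 54.8% and 31.6%, but Ezh2-213 alone accounts for 30.7% in replicate 1 and was listed at 0 in replicate 2, so its transcript split was not reproduced at this depth.

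Among the 6 histone demethylases Kdm6b (JMJD3), which removes the Polycomb mark and is known as a gene that macrophages induce with endotoxin, was highest at 43.1 and 38.4 TPM (mean 40.8 ± 3.35, SD, n = 2). It has 2 annotated transcripts, and the coding Kdm6b-201 held 74.4% and 79.6% of TPM and 97.2% and 97.96% of counts. Kdm6a (UTX), the X-linked enzyme with the same substrate, stood at 28.2 and 15.8 TPM, with retained-intron shares of 42.0% and 28.95%. Kdm6b was above Kdm6a by 0.95 ± 0.47 and above the opposing methyltransferase Ezh2 by 3.36 ± 0.38 on the log2(TPM + 0.1) scale, both in each library.

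The demethylases of the active mark at promoters were far apart. Kdm5c stood at 28.2 and 18.95 TPM and Kdm5b at 1.46 and 1.05 TPM, the lowest mean of the list together with Hdac7. Kdm5b minus Kdm5c was -4.12 ± 0.09 on the log2(TPM + 0.1) scale. Kdm4a stood at 20.0 and 14.7 TPM. Kdm1a (LSD1), the partner of Rcor1, stood at 10.4 and 8.31 TPM. Retained-intron transcripts held 59.2% and 71.5% of Kdm1a TPM, spread over Kdm1a-204 (19.5% and 24.3%), Kdm1a-209 (18.9% and 21.1%) and Kdm1a-205 (16.4% and 24.9%).

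The methyltransferases of active marks were led by Kmt2d (MLL4), an enzyme of enhancers, at 49.5 and 26.0 TPM, all of it coding. Kmt2d-201, of 19823 bases, held 98.1% and 99.0% of its counts and 61.6% and 72.0% of its TPM, the rest being short transcripts. Kmt2a (MLL1) and Kmt2b (MLL2), enzymes of promoters, stood at 16.2 and 10.7 TPM and at 12.8 and 12.8 TPM. They did not differ beyond the spread (0.04 ± 0.42), and their order turned between libraries. Setd2, which marks transcribed gene bodies, stood at 29.6 and 23.4 TPM, Dot1l, which methylates the globular domain of histone H3, at 19.4 and 15.8 TPM, and Setd7 at 4.46 and 4.19 TPM. The retained-intron share of Kmt2b was 27.1% and 47.5%, and that of Setd2 was 31.5% and 30.1%.

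The methyltransferases of repressive marks were led by Ehmt2 (G9a) at 41.5 and 22.2 TPM. Its partner Ehmt1 (GLP), with which it forms a dimer, stood at 10.46 and 7.05 TPM. Ehmt1 was below Ehmt2 in both libraries, at a difference of -1.81 ± 0.24 on the log2(TPM + 0.1) scale. Ehmt2-205, with 13.0% and 17.5% of the TPM, keeps introns of 307 and 100 bases. The shorter is shown as a GC-rich example (chr17:34911479-34911578, mm10, plus strand), with the intron in capitals and 15 exon bases on each side.
Ehmt2-205 short kept intron: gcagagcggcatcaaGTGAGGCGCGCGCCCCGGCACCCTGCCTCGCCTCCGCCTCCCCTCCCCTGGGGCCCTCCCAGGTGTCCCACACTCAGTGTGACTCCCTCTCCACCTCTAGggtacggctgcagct
It is 73% G and C, against 39.8% for the kept intron of Tet2.

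Setdb1, the methyltransferase that silences endogenous retroviruses, stood at 9.83 and 6.69 TPM. Its retained-intron shares were 34.3% and 45.8% of TPM and close to that by counts (32.5% and 46.0%), most of it in Setdb1-204, which keeps 1080 bases (chr3:95337266-95338345, mm10, minus strand). Setdb1 shares exon sequence with Cers2 on the opposite strand, at 40.1 and 22.0 TPM. Smyd5 stood at 1.77 and 2.52 TPM from 108 and 97 counts. Of the structural proteins, Hmgb1, an abundant DNA-bending protein that also acts as an alarm signal outside cells, stood at 16.6 and 17.5 TPM. Hmgb1 has near-identical copies elsewhere in the genome, so its count is uncertain. It also shares exon sequence with Uspl1 on the opposite strand, at 11.3 and 10 TPM. Cbx5 (HP1 alpha), which binds the repressive mark that Setdb1 and Ehmt2 make, stood at 7.15 and 6.36 TPM.

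Across the 17 pairs of paralogs, alternative subunits or opposing enzymes, the difference exceeded its SD over libraries in 14 and had the same sign in both libraries in 15. In 14 it had the same sign in both libraries and by both quantifiers. The exceptions by spread were Hdac7 and Hdac9, Sirt1 and Sirt6, and Kmt2a and Kmt2b. Other pairs of genes were not counted in this way, so these counts have no background and describe these pairs only. Hdac1, Kdm6b and Ezh2 each stand in more than a single pair. Both genes of a pair were measured in the same 2 libraries, where an exact two-sided sign-flip test cannot give a value under 0.5, so none is given.

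**Figure D3:**
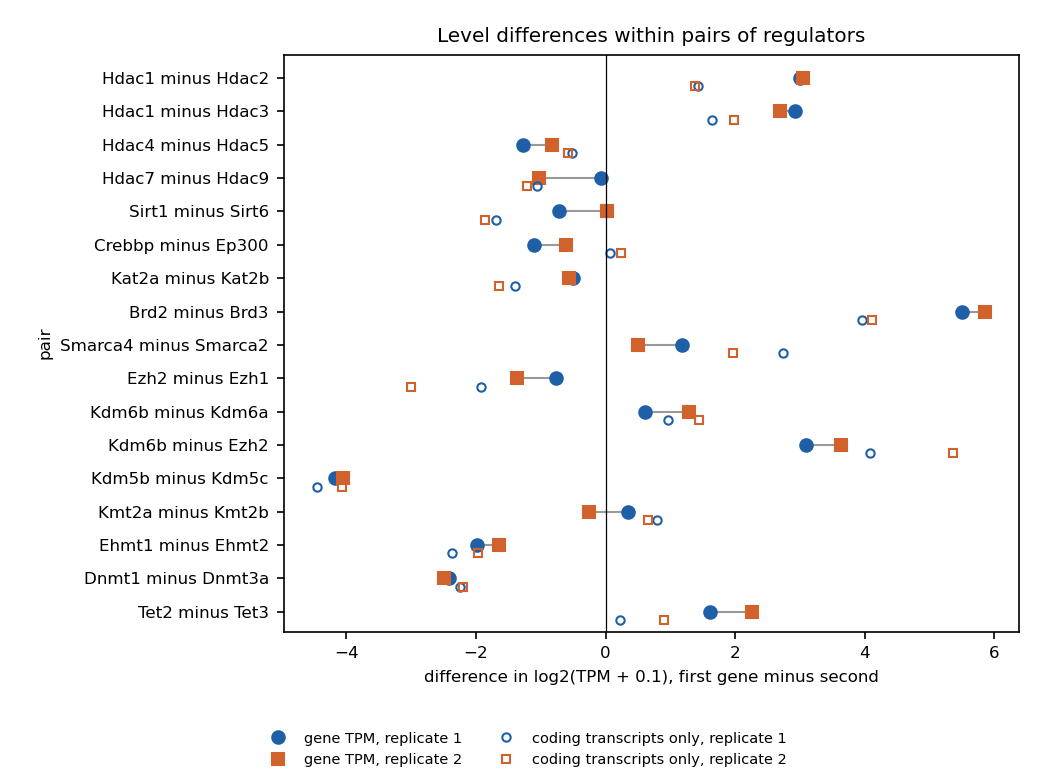
Difference in log2(TPM + 0.1), first gene minus second, for 17 pairs. Filled circles (replicate 1) and squares (replicate 2), joined by a grey line, use the gene's total, and open symbols use coding transcripts only. Brd2 minus Brd3 lies farthest to the right and Kdm5b minus Kdm5c farthest to the left, and the open symbols of Crebbp minus Ep300 lie across 0 from the filled ones.

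The distance of the regulators between the replicates was set beside that of other genes, by fold change and by the deposited intervals. After TMM normalisation of the expected counts none of the 53 was over 2-fold apart, beside 8.95% of the 14052 genes that averaged at least 10 counts and 2.25% of nuclear protein-coding genes of 1 TPM or more. With 53 genes, 0 is near that last share. There is 1 library on each side, so no test was made. Over 1.5-fold apart were 4 regulators, beside 12.5% of those protein-coding genes: Hdac7, Sirt1, Hdac9 and Hmgb1. Relative to the median gene, 33 of the 52 regulators of 1 TPM or more were higher in replicate 2 and 19 were lower, where the background is 50% by construction. The median distance from the median gene was 0.20 on the log2 scale, beside 0.27 over nuclear protein-coding genes of 1 TPM or more. The authors' deposited intervals, after a shift by the median ratio, did not overlap for 19 of the 52 regulators (11 higher and 8 lower in replicate 2). That is a larger share than the 29.1% of the protein-coding genes. The regulators also had higher median levels (13.8 and 11.7 TPM, beside 9.18 and 6.55 TPM). Whether level bears on these shares and distances was not tested.

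The 4 farthest up in replicate 2 were Smyd5 (0.98 on the relative log2 scale), Sirt1 (0.85), Hdac9 (0.66) and Hmgb1 (0.55). The 4 farthest down were Tet3 (-0.55), Kmt2d (-0.46), Ep300 (-0.45) and Ehmt2 (-0.43). By counts after TMM the values were smaller for Smyd5 (0.46), Kmt2d (-0.26) and Ep300 (-0.25). For the other 5 they were 0.84 (Sirt1), 0.64 (Hdac9), 0.63 (Hmgb1), -0.57 (Tet3) and -0.46 (Ehmt2). Smyd5-205, a short transcript, held 20.6% of Smyd5 TPM in replicate 2 and was listed at 0 in replicate 1. Different amounts of starting RNA and different depths move with replicate, and their part in these ratios cannot be told apart.

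**Figure D4:**
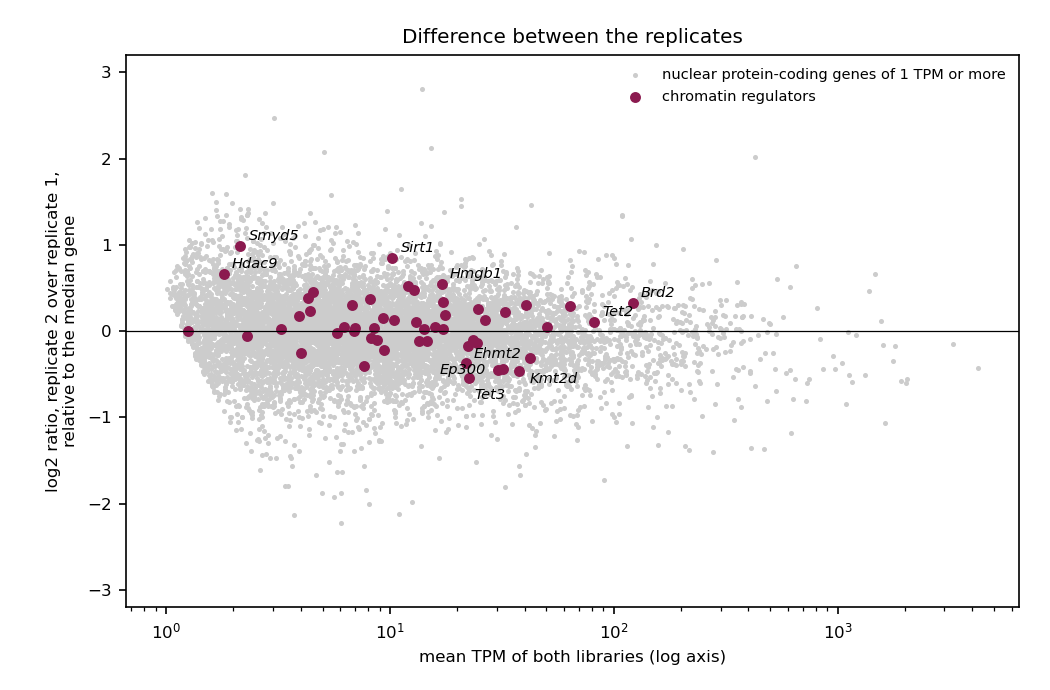
Log2 ratio of TPM in replicate 2 over replicate 1, relative to the median gene (vertical axis), against mean TPM (log axis). Grey points are nuclear protein-coding genes of 1 TPM or more in both libraries and dark points are the 52 regulators above that floor. All the dark points lie between -0.55 (Tet3) and 0.98 (Smyd5).

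The set of RefSeq promoters (GRCm38.p6) used here held 48 of the 53 regulators, all but Hdac1, Hdac3, Kdm6b, Kmt2b and Mbd2. It gave 67 windows in all, of 250 bases before to 50 after a start. The set held 7056 of the 8773 nuclear protein-coding genes of 1 TPM or more, so a missing gene describes this set only. The median window held 27 CG dinucleotides, the letters that DNA methyltransferases act on, beside 21 for nuclear protein-coding genes of 1 TPM or more and 14 for all nuclear protein-coding genes. The extremes are shown, Tet2 with 57 CG (chr3:133544341-133544640, minus strand, 81.3% G and C) and an Hdac9 start with 0 (chr12:34917046-34917345, minus strand, 44.0% G and C). Each CG is in capitals.
Tet2 promoter: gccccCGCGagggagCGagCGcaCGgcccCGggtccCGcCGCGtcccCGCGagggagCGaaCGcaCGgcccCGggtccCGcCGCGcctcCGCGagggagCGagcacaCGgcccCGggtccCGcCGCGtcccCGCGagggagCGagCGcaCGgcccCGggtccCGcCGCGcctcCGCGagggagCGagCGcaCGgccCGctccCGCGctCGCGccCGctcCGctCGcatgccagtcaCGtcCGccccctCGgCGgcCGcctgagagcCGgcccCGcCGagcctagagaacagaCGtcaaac
Hdac9 promoter: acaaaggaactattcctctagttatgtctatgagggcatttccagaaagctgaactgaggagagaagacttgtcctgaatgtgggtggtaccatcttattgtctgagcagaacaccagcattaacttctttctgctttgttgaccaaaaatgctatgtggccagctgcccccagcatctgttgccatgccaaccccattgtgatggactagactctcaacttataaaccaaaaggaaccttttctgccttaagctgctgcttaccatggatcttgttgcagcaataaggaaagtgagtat
Tet2 was the second highest gene of the list and Hdac9 the third lowest, but whether CG number goes with level was not tested. The Brd3 window held 46 CG at a mean of 2.31 TPM, and the windows of Brd2, the highest gene, held 14, 24 and 32. Windows of the same gene could differ: 1 Ncor1 start (chr11:62438466-62438765, minus strand) held 2 CG and the other (chr11:62457283-62457582, minus strand) 36.

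Motifs were searched on both strands as exact letters, and none of them contains another. The ETS core CCGGAAG was in 9 of the 67 windows (13.4%), beside 20.0% of windows of nuclear protein-coding genes of 1 TPM or more. CCAAT was in 22 windows (32.8%, beside 36.9%) and TATAAA in 2 (2.99%, beside 6.88%), 1 of these the Hdac9 start without CG. None of the 67 windows held TGACGTCA, the cAMP response element, which was in 3.34% of the windows of those protein-coding genes. These matches describe letters in the windows and show no binding.

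Of 98 other chromatin regulators, listed by function, 86 were at 1 TPM or more in both libraries and 34 at 10 TPM or more, with medians of 10.1 and 7.49 TPM. The highest were Atrx (71.7 and 44.0 TPM), which deposits a histone variant at repeats, Nsd3 (68.8 and 41.3), a histone methyltransferase, Chd2 (58.5 and 40.4), a remodeller, and Aebp2 (51.0 and 46.6), an accessory subunit of Polycomb repressive complex 2. Only Brd2 and Tet2 of the 53 exceeded Atrx in both libraries. The lowest were Hdac11 and Dnmt3b, at 0.05 and 0.07 TPM in each library, Tet1, and Smarca1, which was listed at 0 in both. Hdac11 rested on 3 counts in each library and Dnmt3b on 6.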

How the data were processed

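RNA of 2 libraries of 1 group was analysed from the authors' deposited tables. Their readme names mm10 as the assembly and GENCODE M21 for the genes. Per the file headers, the gene and transcript tables of RSEM format hold expected counts, TPM and bounds of a TPM interval of unstated level (a signal here, as are effective lengths). Per the file headers, they also give each transcript as a percent of its gene's TPM, which the authors computed. The deposited tables of kallisto format hold estimated counts and TPM made from reads, called the second quantifier. The sources used here do not give the aligner, versions or strand setting. A deposited TPM divides each expected count by an effective length before scaling, so short transcripts receive large values.

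The 53 members and all lists were chosen with earlier results of these data known. Rows outside annotated genes were left out (1.19% and 0.215% of expected counts). The pseudocount was 0.1 TPM. Ratios were centred on the median nuclear protein-coding gene of 1 TPM or more. TMM factors came from rounded expected counts with edgeR 4.0.16 under R 4.3.3, for genes averaging at least 10 counts, and alternative size factors from DESeq2 1.42.0. Scripts ran under Python 3.11.15 with pandas 2.3.3, numpy 2.4.6 and scipy 1.17.1, and were tested on simulated data. Reads carry no molecular identifiers.

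The genes named in full were set by rule: members of a mean of 40 TPM or more, the 5 lowest, any below 1 TPM, the 4 farthest apart between replicates each way, up to 8 with a retained-intron share of 25% in both libraries, members of the pairs, and the 4 highest and 4 lowest other regulators. Alternatives were the second quantifier, other floors, pseudocounts and scalings, counts in place of TPM, the posterior mean, and each library alone.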

Additional observations from a re-analysis of the deposited data

How the results depend on the processing

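With 1 group of 2 libraries the spread is imprecise, and levels of transcripts within a gene are estimates. The count of regulators at 10 TPM or more was 28, and 14 by the second quantifier, 48 after rescaling TPM to the sum of nuclear protein-coding genes, and 12 at a floor of 20 TPM. The median TPM over all 53 was 12.2, and 7.18 by the second quantifier and 53.5 when rescaled. No regulator was over 2-fold apart, and 4 were over 1.5-fold. The median relative log2 ratio was 0.05, and -0.37 with no floor and a pseudocount of 0.1, changed together. The count with a retained-intron share of 25% or more was 13, and 22 by the second quantifier, 8 by counts, 31 at a threshold of 10% and 4 at 50%. The median share was 16.5%, and 22.1% by the second quantifier, 4.79% by counts and 15.1% above 10 TPM. Among pairs, Crebbp minus Ep300 turned to 0.16 with coding transcripts only, and Smarca4 minus Smarca2 to -0.073 by the second quantifier. Sirt1 minus Sirt6, within its spread at -0.35, was 0.28 by the second quantifier. The cause of these moves was not tested. With either library alone, 52 to 53 regulators reached 1 TPM and 29 to 32 reached 10 TPM, the median TPM was 11.6 to 12.8, 15 to 17 regulators had the retained-intron share with a median of 16.1% to 16.8%, 88 other regulators reached 1 TPM, and 15 to 17 pairs kept the sign of their mean. Leaving out a library gives no ratio between replicates. The other settings kept these counts within 1.5 times. No paired analysis was possible because the series has 1 group.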
